A study of Drosophila melanogaster with 3 samples.

Results

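The genes described here are 10 muscle genes of Drosophila melanogaster, taken from a fixed list of names in the Release 6 annotation, out of 13945 protein-coding genes on the 6 main chromosome arms. They are the transcription factor genes Mef2 and twi and 8 genes of the contractile apparatus: Mhc, Mlc2, Act57B, Act79B, up, wupA, sls and bt. The measurements were ChIP-seq peak lists (sequencing of DNA recovered by chromatin immunoprecipitation) for acj6, a POU-homeodomain transcription factor known from olfactory neurons, made with an antibody against GFP in a transgenic line that stably expresses acj6 fused to GFP at its C-terminus. Males and females were pooled as whole white prepupae, the stage at which the puparium forms, in 1 group of 3 biological replicates. Muscle is 1 tissue among many in such a sample, so that signal from muscle nuclei cannot be told apart from signal from other cells. There was no second group, the control experiment was not analysed here, and no test was made: each count is set beside the same count over all genes or all peaks.

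Each replicate had a list of 30000 regions, weak ones included, and a further list of 30000 came from the pooled alignments. The IDR list (irreproducible discovery rate, a procedure that keeps peaks whose ranks repeat between replicates) held 8248 peaks. Regions were ranked within each list by the authors' signal value, with rank 1 the strongest. A region belonged to a gene when its summit, the position of highest signal, lay in the gene body or within 5 kb of it. For the replicates, the 8248 strongest regions were used to match the length of the IDR list. Depth is unknown, because no file gives a read count.

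In the fly embryo Twist, a basic helix-loop-helix factor, specifies mesoderm and activates Mef2, and the MADS-box factor MEF2 then activates genes of muscle differentiation. The contractile unit they serve, the sarcomere, slides thick filaments of myosin along thin filaments of actin, while troponin and tropomyosin on the thin filament gate this by calcium. Very large elastic proteins, among them the titin-like products of sls and bt, link the thick filaments to the Z-disc. At puparium formation most larval muscles are about to be broken down and the adult flight muscles have yet to be built.

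IDR peaks lay at 5 of the 10 genes: Mef2, twi, Mlc2, Act57B and sls. This is no more than the background, since 53.3% of all protein-coding genes had an IDR summit in the body or within 5 kb. Over the strongest regions, 5 of the 10 genes had one in each replicate, with wupA in place of Act57B in replicate 1, beside 55.5%, 53.5% and 55.4% of all genes in replicates 1, 2 and 3. In every replicate 4 had one (Mef2, twi, Mlc2 and sls), beside 47.2% of all genes. All 10 genes had at least 1 region in the pooled list, as did 78.0% of all genes. What set the genes apart from each other was how many summits they held and how strong these were.

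Of 25 IDR summits in the 10 windows, 21 were at Mef2 and twi and 4 at the 8 contractile protein genes. Per 100 kb of window this was 16.4 at the regulators (128 kb) and 1.55 at the contractile protein genes (258 kb), beside 6.16 over the 6 arms. The replicates showed the same split, with 22, 21 and 22 strong regions at the regulators in replicates 1, 2 and 3 (21.7 ± 0.577, SD, n = 3) and 4, 7 and 4 at the contractile protein genes (5.0 ± 1.73, SD, n = 3). The IDR list was made from these replicates, so their counts are not independent of it. Most of the regulators' count rests on 1 annotated transcript of twi. Without it the regulators held 9 summits, of which 8 were at Mef2 and 1 at twi, or 13.3 per 100 kb of a window of 67.6 kb, and the strong regions there numbered 10, 10 and 9 in the replicates.

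**Figure D1:**
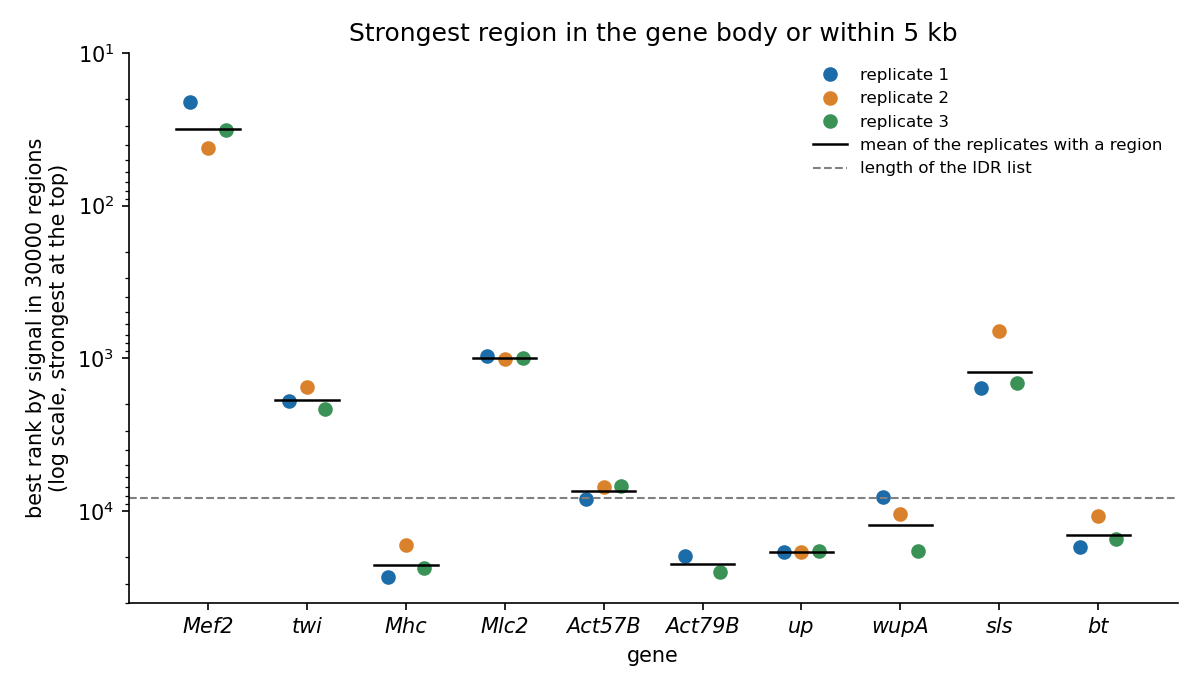
Best rank by signal among the 30000 regions of each replicate (vertical axis, log scale, strongest at the top) for each of the 10 genes, with points for replicates 1 to 3, a bar for their mean and a dashed line at rank 8248. Mef2 lies at ranks 21 to 42 in all 3 replicates, twi, Mlc2 and sls between 662 and 2162, and Mhc, Act79B, up and bt below the dashed line in every replicate that lists a region.

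Mef2 (FBgn0011656, dm6 chr2R:9913496-9958858, minus strand, 45363 bp) carried the strongest region of all 10 genes and 8 IDR summits, a number that 1.37% of all genes reached. The top one, at 9959901, had rank 33 of 8248 and a signal of 1984.2 in the IDR list. In replicates 1, 2 and 3 it ranked 21, 42 and 32 of 30000, with signals of 673, 597 and 713, which places it at 0.106% ± 0.035 of the list (SD, n = 3). This summit lay 1043 bp upstream of the Mef2 transcription start site (TSS) farthest upstream, but a nearer TSS was that of Pdrg1, 169 bp away. The position is also inside Pal1, a gene for a peptide amidating enzyme that was named after its place was seen. For the summits of replicates 1, 2 and 3 the nearest TSS was one of Pal1, 170, 166 and 159 bp away. The lists cannot assign the region to any one of the 3 genes.

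The other Mef2 summits lay upstream of the gene, in its introns and beyond its 3′ end. A summit at 9958960, 102 bp upstream of the same Mef2 TSS, was weaker, with rank 6288 of 8248 and ranks of 8226, 5317 and 7056 in the replicates. Mef2 has 11 transcripts and 3 TSSs, at 9958858 (2 transcripts), 9944764 (1 transcript) and 9929615 (8 transcripts). No IDR summit lay within 500 bp of either downstream TSS.

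Within the gene, 5 summits lay in introns of the longest transcript, 4 of them in the first intron. Among the 4, the summit at 9954797 had IDR rank 1629 and replicate ranks of 2032, 1228 and 1920. The summit at 9942985 had IDR rank 1675 and replicate ranks of 1411, 2281 and 1639, and falls in the 5′ UTR of the shorter transcript Mef2-RG. The summit at 9949667 had IDR rank 1998 and replicate ranks of 1739, 2014 and 2730. These 3 repeated closely in position too, with replicate summits at most 10 bp from the IDR summit. The remaining intronic summits, at 9956237 and 9935949, were weaker, at IDR ranks 5891 and 6529.

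The last summit in the Mef2 window, at 9910837, lay 2659 bp beyond the 3′ end of the gene and 56 bp upstream of the TSS of Etf-QO, a gene for a mitochondrial flavoprotein oxidoreductase. It was the weakest, at IDR rank 7532, with replicate ranks of 11363, 9240 and 6562. Of the 8 summits, 6 were covered over at least 50% of their width by a strong region in every replicate. Of the others, the one at 9954797 failed only by width: its replicate 3 region was 102 bp wide against 211 bp for the IDR peak.

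The gene twi (FBgn0003900, dm6 chr2R:22985374-23048325, plus strand, 62952 bp) held 13 IDR summits, a number that 0.409% of all genes reached, but none of them was nearest to a twi TSS. The annotated body is long because of 1 transcript, twi-RC, which starts at 22985374. The other transcripts start at 23046108 and 23046322 and span 2218 bp. Without twi-RC, the window of twi held 1 IDR summit in place of 13, and the total over the 10 genes was 13 in place of 25.

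Of the 13 summits, 12 lay in the second of the 3 introns of twi-RC and 9 of these also inside CG42741, an uncharacterised gene on the opposite strand (chr2R:23011078-23042943). The nearest TSS was that of CG42741 for 6 summits, of CG9896 for 6 and of Fatp2, a fatty acid transport protein gene, for 1. For 8 of the 13 summits no protein-coding TSS lay within 10 kb. Across all IDR peaks 16.3% lay that far from a TSS.

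The strongest summit at twi, at 23018409, had IDR rank 1833 and a signal of 330. It ranked 1900, 1540 and 2162 in replicates 1, 2 and 3 (6.22% ± 1.04 of the list, SD, n = 3), so that the best twi region stood below the best Mef2 region in each replicate. The summit at 22998431 followed at IDR rank 2174 with replicate ranks of 2093, 1898 and 2586, and it lay 453 bp downstream of the TSS of CG9896. The summits at 23034994 and 23022717 had IDR ranks of 2884 and 3025, and the weakest of the 13 had rank 8038. Of the 13, 11 were covered in all 3 replicates.

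At the promoters used by the shorter twi transcripts the signal was weak. Replicate 1 had a region at 23046298, 24 bp upstream of a TSS, at rank 14743, and replicate 2 had one at 23046357, 35 bp downstream, at rank 12904. Replicate 3 listed no region within 500 bp of a twi TSS. Neither region was in the IDR list.

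**Figure D2:**
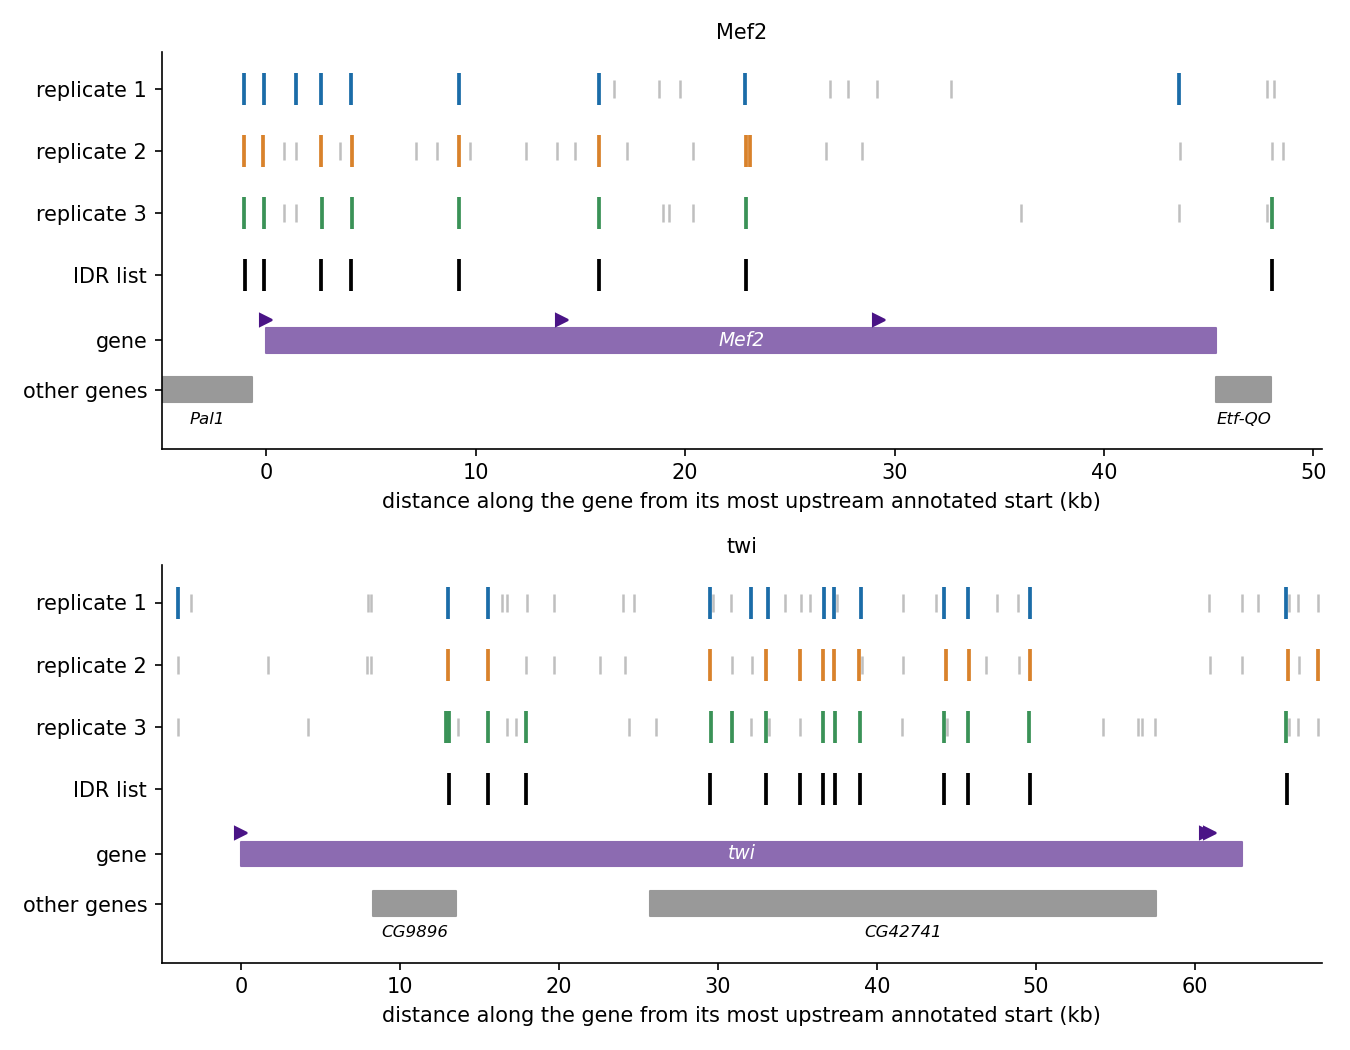
Summits in and around Mef2 (top) and twi (bottom) by distance from the most upstream annotated start along the direction of transcription (kb). Rows show the IDR list in black and replicates 1 to 3, with coloured marks for the 8248 strongest regions and short grey marks for weaker ones. Triangles mark annotated TSSs. The Mef2 summits repeat at the same places in all 3 replicates, and 12 of the 13 twi summits lie between the long transcript's start and the start of the shorter ones.

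The thick filament genes differed from each other. Mhc (FBgn0264695, dm6 chr2L:16766566-16788766, plus strand) encodes the single muscle myosin heavy chain of the fly, with its isoforms made by splicing. It had no IDR summit, and the nearest one lay 15052 bp away from the gene. Its best regions ranked 27294, 16896 and 23792 in replicates 1, 2 and 3 (75.5% ± 17.6 of the list, SD, n = 3). They were at different positions in the 3 replicates, from 891 to 4368 bp upstream of the nearest Mhc TSS, so that no single weak site recurred as the strongest.

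Mlc2 (FBgn0002773, dm6 chr3R:30171438-30174551, minus strand) encodes the myosin regulatory light chain of muscle, and a strong and repeatable summit lay beyond its 3′ end. The IDR summit at 30170823 had rank 978 of 8248 and a signal of 489, and replicate ranks of 962, 1020 and 991 gave the narrowest spread of the contractile protein genes with an IDR summit (3.3% ± 0.0967 of the list, SD, n = 3). The replicate summits were within 19 bp of it. It lay 615 bp past the gene end and 3728 bp from the Mlc2 TSS, but 384 bp downstream of the TSS of Rsod, in an intron of that gene. A further region in the Mlc2 3′ UTR was listed in every replicate, with summits at 30171536, 30171478 and 30171565 and ranks of 5823, 4370 and 5447, on the other side of the Rsod TSS at 329, 271 and 358 bp. The pooled and IDR lists did not hold it. No list had a region within 500 bp of the Mlc2 TSS. The sequence around the IDR summit is shown because its rank varied least between replicates among the contractile protein genes with an IDR summit (201 bp, plus strand, NCBI Release 6 genome, chr3R:30170723-30170923, with matches to TAATTA and GAGAG on either strand in capitals and E-boxes unmarked).
Mlc2 summit: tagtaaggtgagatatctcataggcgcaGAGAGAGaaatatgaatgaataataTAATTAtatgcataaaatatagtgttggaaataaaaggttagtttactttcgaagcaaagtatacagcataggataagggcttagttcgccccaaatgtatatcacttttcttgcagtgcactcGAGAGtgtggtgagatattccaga

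Of the actin genes, Act57B (FBgn0000044, dm6 chr2R:20944021-20946431, plus strand), a gene for a muscle actin and a direct MEF2 target in the embryo, had 1 weak IDR summit. It lay at 20940039, 3982 bp upstream of the TSS, with IDR rank 6826 and a signal of 115. Replicates 1, 2 and 3 ranked it 8393, 7003 and 6922 (24.8% ± 2.76 of the list, SD, n = 3), so that in replicate 1 it fell outside the 8248 strongest. Act79B (FBgn0000045, dm6 chr3L:21985210-21987190, plus strand), the actin gene of adult leg and other tubular muscles, had none. Its best regions ranked 19776 in replicate 1 and 25178 in replicate 3, replicate 2 listed no region, and the nearest IDR summit was 12655 bp away.

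The troponin genes had no IDR summit either. For up (FBgn0004169, dm6 chrX:13593474-13602578, minus strand), which encodes troponin T, the best regions ranked 18542, 18626 and 18427 (61.8% ± 0.333 of the list, SD, n = 3). In replicates 1 and 3 the best region was inside the gene, 3789 and 3632 bp downstream of the nearest up TSS, and in replicate 2 it was 1560 bp downstream, so that the even ranks do not come from 1 site. For wupA (FBgn0283471, dm6 chrX:18105568-18116922, minus strand), which encodes troponin I, the best regions ranked 8119, 10524 and 18480 (41.2% ± 18.1 of the list, SD, n = 3). They lay beyond the 3′ end of wupA, at the TSS of Taf8 in replicates 1 and 2 (72 and 32 bp upstream) and at the TSS of Mvb12 in replicate 3, genes that were named after their places were seen. The nearest IDR summits to up and wupA were 14249 and 10657 bp from the gene bodies.

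The giant genes sls and bt differed at their start sites. The gene sls (FBgn0086906, dm6 chr3L:2039681-2115611, minus strand, 75931 bp), whose products include the titin-like kettin, had the only contractile protein gene start among the 8 with an IDR summit within 500 bp. This summit, at 2115918, lay 307 bp upstream of the TSS shared by all 13 transcripts and had IDR rank 1092 with a signal of 460. Replicates 1, 2 and 3 gave ranks of 1566, 662 and 1460 and signals of 112, 198 and 141 (4.1% ± 1.65 of the list, SD, n = 3). All 3 are among the strongest 8248, and replicate 2 is the highest. A weaker IDR summit at 2117301, 1690 bp upstream, had IDR rank 6016 and replicate ranks of 8734, 3823 and 8585, so that in replicates 1 and 3 it fell outside the strongest 8248. Both are shown for comparison, as 201 bp of the plus strand of the NCBI Release 6 genome, chr3L:2115818-2116018 and chr3L:2117201-2117401, with a match to TAATTA in capitals and E-boxes unmarked in the weaker one. The stronger one held no match to any motif searched.
sls summit 307 bp upstream: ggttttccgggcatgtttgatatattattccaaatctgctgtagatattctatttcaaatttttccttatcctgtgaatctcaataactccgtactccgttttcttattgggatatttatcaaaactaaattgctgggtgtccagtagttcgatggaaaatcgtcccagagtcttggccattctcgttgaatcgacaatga
sls summit 1690 bp upstream: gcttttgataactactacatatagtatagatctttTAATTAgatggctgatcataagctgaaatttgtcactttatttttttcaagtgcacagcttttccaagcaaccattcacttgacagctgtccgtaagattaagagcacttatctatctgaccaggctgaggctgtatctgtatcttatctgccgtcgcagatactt

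Farther upstream of sls, regions recurred in every replicate without entering the IDR list. One at 2577, 2574 and 2577 bp upstream had ranks of 9342, 7946 and 8623 in replicates 1, 2 and 3. Another at 3510, 3596 and 3594 bp upstream had ranks of 17575, 6889 and 11884. Both lie inside zormin (chr3L:2117466-2151700), the neighbouring gene on the same strand, which encodes another immunoglobulin-domain protein of the sarcomere and was named after its place was seen. Replicate 2 gave the best rank at all 4 places upstream of sls. Inside the 75931 bp of sls there was no IDR summit, and the replicates had 4, 4 and 3 weak regions. Most of this body is protein-coding, at 73.0%. Among protein-coding genes of 50 kb or longer, 71.0% had an IDR summit in the body and 79.2% in the body or within 5 kb.

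The gene bt (FBgn0005666, dm6 chr4:724400-776474, plus strand, 52075 bp) encodes projectin, the twitchin-like protein kinase of the sarcomere, and had no IDR summit. Its best regions ranked 17247, 10806 and 15260 (48.1% ± 11.0 of the list, SD, n = 3), each at a different place. A very weak region recurred at a bt TSS, 28 bp downstream in replicate 1, 129 bp upstream in replicate 2 and 21 bp upstream in replicate 3, with ranks of 17585, 29866 and 25491. Replicate 2 listed 16 regions around bt, replicate 1 listed 3 and replicate 3 listed 9. Chromosome 4 as a whole had few peaks: 24 IDR peaks or 1.78 per 100 kb, and 35.0% of its protein-coding genes with an IDR summit.

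**Figure D3:**
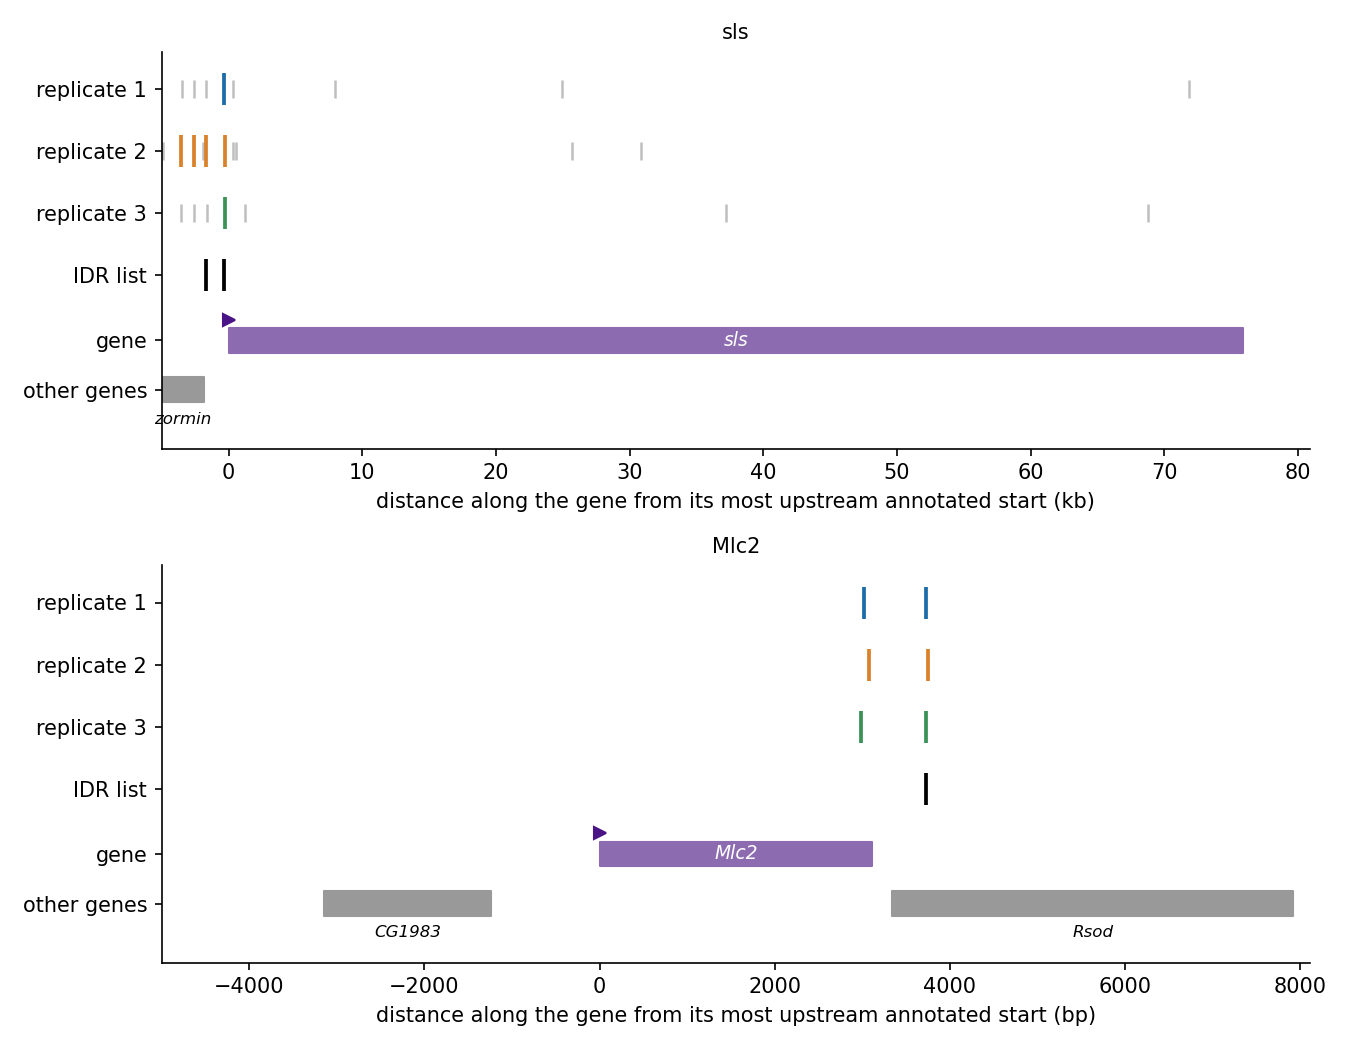
Summits in and around sls (top, distance in kb) and Mlc2 (bottom, distance in bp) by distance from the annotated start along the direction of transcription, drawn as for the regulators: black for the IDR list, coloured for the 8248 strongest regions of each replicate and grey for weaker ones. The sls summits cluster just upstream of its start and the body is nearly empty, while the Mlc2 summits lie at the 3′ end, around the start of Rsod.

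The share of genes with a summit within 500 bp of an own TSS was near the background. Of the 25 summits, 2 were within 500 bp of a TSS of the gene they were counted for, the one 102 bp upstream of Mef2 and the one 307 bp upstream of sls. Thus 2 of the 10 genes had an IDR summit at an own TSS, beside 20.4% of all protein-coding genes. When every region of any rank counted, 3 of the 10 genes (Mef2, sls and bt) had one within 500 bp of an own TSS in every replicate, beside 28.6% of all genes.

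A TSS of any protein-coding gene lay within 500 bp of 6 of the 25 summits (24.0%), beside 29.8% of all IDR peaks. By place, 15 summits were in introns, 3 between genes, 1 in a 5′ UTR and 6 within 500 bp of a TSS. By distance the 25 summits lay farther from a TSS, with a median of 4314 bp, beside 1914 bp for all IDR peaks. For 8 of the 25, all of them at twi, the nearest TSS was more than 10 kb away, beside 16.3% of all IDR peaks. The difference was not tested. The nearest TSS was that of the muscle gene for 9 summits and that of another gene for 16. With a summit counted only for the gene with the nearest TSS, 3 of the 10 genes kept one: Mef2, Act57B and sls. The share of all genes under this stricter rule was not computed, so the count has no background.

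By median rank and signal the 25 summits were weaker than IDR peaks as a whole, a difference that was not tested. Their median rank was 5320 of 8248, beside 4124.5 for the whole list, and with the list cut by rank into 4 sections of equal size they numbered 7, 4, 5 and 9 from the strongest section to the weakest. Their median signal was 146, beside 182 for all IDR peaks. Of the 25, 19 were covered over at least 50% of their width by a strong region in every replicate (76.0%, exact binomial 95% interval 54.9% to 90.6%, counting error only), beside 70.6% of all IDR peaks. The IDR list was made from these replicates, so this describes the list. All 25 had some overlapping region in each of the 3 replicates.

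Gene length goes with the number of summits and differs widely among these genes. The median gene had 1 IDR summit in its window and the median gene of 50 kb or longer had 4. Mef2 with 8 lay above the value for such long genes, though at 45363 bp it is shorter than they are. No median was computed for genes of its length. With 13 through its long transcript, twi lay above that value too. Without that transcript twi had a body of 2218 bp and 1 summit, the same number as the median gene. The genes sls with 2 and bt with 0, both longer than 50 kb, lay below the median of 4 for that length. Of genes under 10 kb, 49.8% had an IDR summit, and among the 4 muscle genes of that size (Mlc2, Act57B, Act79B and up) 2 did.

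**Figure D4:**
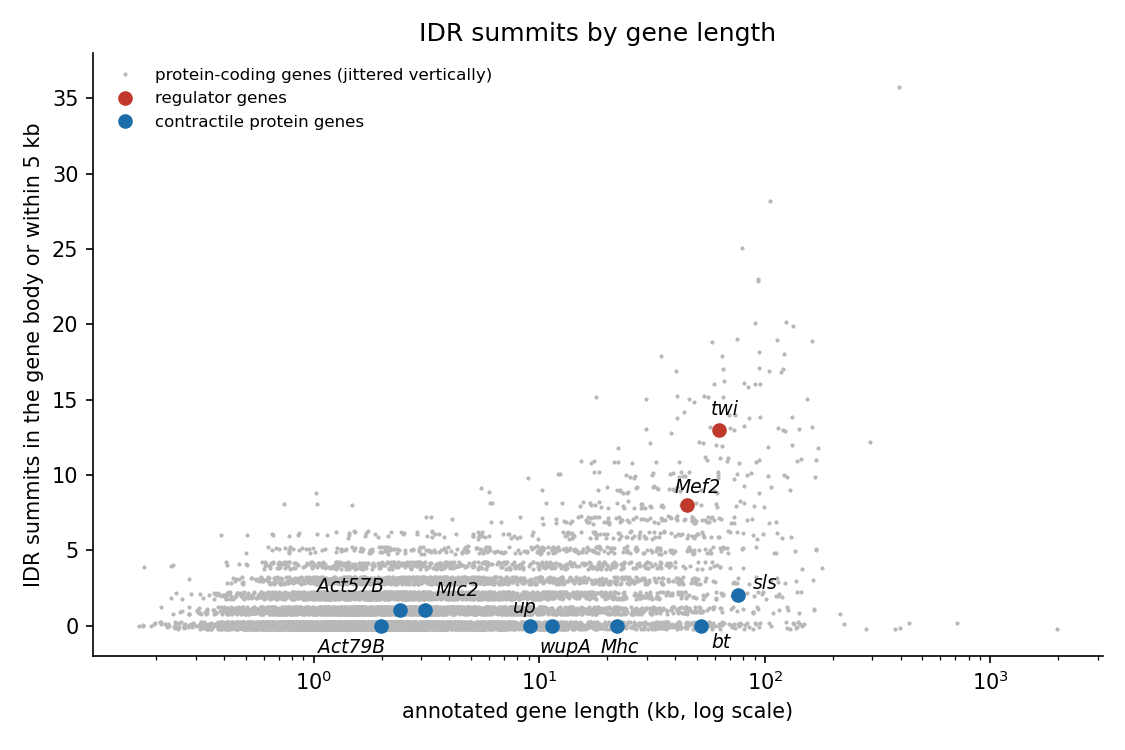
Number of IDR summits in the gene body or within 5 kb (vertical axis) against annotated gene length (kb, log scale) for all 13945 protein-coding genes (grey, jittered vertically), the regulators Mef2 and twi (red) and the 8 contractile protein genes (blue). Mef2 and twi hold 8 and 13 summits, and the long genes sls and bt hold 2 and 0. The twi point uses its long transcript, without which its body is 2218 bp with 1 summit.

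Sequence within 100 bp of the summits was searched on both strands, with overlapping matches of different motifs counted separately. The POU-IV core ATTAAT was at 2 of 25 summits (8.0%), both at twi, beside 19.2% of all IDR summits and 11.0% of 19253 promoter windows of the same length. The homeodomain core TAATTA was at 4 (16.0%), 2 of them the Mlc2 summit and the weaker sls summit, beside 18.4% and 11.1%. The octamer ATGCAAAT, the textbook POU site, was at none, beside 3.18% and 1.94%. Any of the 3 was at 5 summits (20.0%), beside 32.8% of all IDR summits and 20.3% of promoters.

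The motifs of muscle regulators were searched in the same windows. The MEF2 site was at 2 summits (8.0%), both at twi, beside 12.9% of all IDR summits and 7.61% of promoters. The E-box CANNTG, the general site of basic helix-loop-helix factors, was at 16 (64.0%), beside 57.9% and 65.3%, and the E-box type CATATG at 2 (8.0%), beside 7.40% and 4.96%. Within 50 bp of the summit the E-box was at 13 (52.0%), beside 33.5% of all IDR summits and 39.9% of promoters, and the MEF2 site at 1 (4.0%), beside 7.59% and 3.47%. The GAGA element GAGAG was at 6 (24.0%), beside 20.2% and 25.6%, and the DRE, TATCGATA, at none, beside 1.76% and 6.79%. The strongest Mef2 summit matched none of the 8 motifs. GC content ranged from 29.9% to 47.8% with a median of 35.8%, beside a median of 33.3% for all IDR summits.

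Other muscle genes were counted in 4 lists that do not contain the 10 genes. Of 30 regulators of mesoderm and muscle identity, 18 had an IDR summit in the body or within 5 kb (60.0%), as did 17 of 31 sarcomere genes (54.8%), 11 of 16 myoblast fusion genes (68.8%) and 11 of 13 muscle attachment genes (84.6%). Together this was 57 of 90 (63.3%), beside 53.3% of all genes. The number with a strong region was 17, 17 and 19 regulators in replicates 1, 2 and 3 (17.7 ± 1.15, SD, n = 3), 17, 14 and 16 sarcomere genes (15.7 ± 1.53), 14, 10 and 13 fusion genes (12.3 ± 2.08) and 11, 11 and 10 attachment genes (10.7 ± 0.577). As a mean share this was 58.9%, 50.5%, 77.1% and 82.1% of the 4 lists, beside 54.8% ± 1.13 of all genes (SD, n = 3). The lists differ in gene length, with medians of 8690.5, 10808, 11987.5 and 14192 bp in the same order, beside 2166 bp over all genes. Longer genes had an IDR summit more often, at 49.8% of genes under 10 kb and 79.2% of those of 50 kb or longer. The shares above are not matched for length. Per 100 kb of window they held 6.72, 4.65, 8.95 and 10.1 IDR summits, beside 6.16 over the 6 arms. The regulator and sarcomere lists thus differed less than Mef2 and twi (16.4) did from the 8 contractile protein genes (1.55).

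Among the regulators the strongest summits were at tup, Poxm and tin. The summit for tup, a LIM-homeodomain gene, had IDR rank 201, but it was 115 bp from the TSS of CG10602 and 23467 bp from a tup TSS. Poxm, a Pax-family gene expressed in somatic mesoderm, had rank 261 at 456 bp upstream of its own TSS, and tin, the NK-homeodomain gene of heart and dorsal mesoderm, rank 407 at 194 bp upstream. Replicate ranks were 371, 191 and 302 for Poxm and 439, 492 and 336 for tin. In all, 6 of the 30 regulators (20.0%) had an IDR summit within 500 bp of an own TSS, beside 20.4% of all genes.

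Among sarcomere genes the strongest summit was that of Strn-Mlck, which encodes myosin light chain kinase isoforms, at IDR rank 5 with a signal of 2976.3 and replicate ranks of 7, 5 and 5. It lay 94 bp from the TSS of CG8320 and 3004 bp from the nearest Strn-Mlck TSS. That of Tm1, a tropomyosin gene, had rank 233 and was likewise at another TSS, that of CG4338 at 127 bp. Msp300, a gene for a nesprin that positions muscle nuclei, had rank 280 at 338 bp upstream of one of its own TSSs. Of the 17 sarcomere genes with an IDR summit, the strongest summit was nearest to an own TSS for 5 and within 500 bp of another gene's TSS for 8. For a further gene, not counted among the 5, an own TSS and that of another gene were equally near, at 1233 bp. None of the 5 troponin C genes, all under 10 kb and named as a group after their values were seen, had an IDR summit, beside 49.8% of all genes under 10 kb.

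Fusion and attachment genes had the highest rates per length of the 4 lists. For siz, an Arf exchange factor gene of myoblast fusion, the best IDR rank was 476, at 198 bp from the TSS of CG10584. The founder-cell adhesion gene kirre had 36 IDR summits, more than any other gene, over 394149 bp. Its best rank was 544, at a summit 45954 bp from a kirre TSS, with the TSS of CG32795 nearest at 2563 bp. Another gene of the fusion list, rst, named after its place was seen, lies inside kirre. Its 4 summits are also among the 36, and both counts enter the rate of the list. The Rac activator gene mbc had rank 735 at 1156 bp downstream of its own TSS. In the attachment list the integrin alpha subunit gene mew had 10 summits, the best at rank 349 in an intron. The adaptor gene stck had rank 827 at 1199 bp upstream of its TSS, and the integrin gene if had rank 1258, with the TSS of goe nearest at 735 bp. An IDR summit within 500 bp of an own TSS was found for 7 of the 31 sarcomere genes, 4 of the 16 fusion genes and 4 of the 13 attachment genes, beside 20.4% of all genes.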

How the data were processed

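ChIP was made on 3 samples of whole white prepupae, fragmented by sonication to 200 to 800 bp per the labels. The labels call them biological replicates and do not say whether they came from separate cultures. Peak lists in dm6 coordinates were used as the authors deposited them, with a signal value per region from their caller, which was used only for ranking within a list because no scaling between lists is stated. The IDR threshold and the names of aligner and caller were not given in the sources used here, and the dm3 lists were not analysed here. Each replicate list was made against 1 control file common to the replicates, per the deposited text files.

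Summits were set against Ensembl release 115 gene models on the Release 6 genome, with windows of 5 kb around the gene body and 500 bp around a TSS. Coverage means that at least 50% of a peak lay in 1 of the 8248 strongest regions of a replicate, and ranks of a summit in a replicate are those of the strongest overlapping region. Motif background came from 201 bp windows (150 bp before to 50 bp after each distinct TSS) of the genome, in place of RefSeq promoter sequences. No sequence of Mef2, twi and Act57B is shown.

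The 10 genes and the lists were chosen with earlier results of these data known. The genes named are the 10, the gene with the nearest TSS to each IDR summit at them, and up to 3 genes of each list with the best IDR rank, with the exceptions stated. No feature was tested, and intervals cover counting error only. Alternatives varied the windows, the overlap, the peak sets and the replicates. Python 3.11.15, numpy 2.4.6, pandas 2.3.3, scipy 1.17.1 and matplotlib 3.10.9 were used, and the counting steps were tested on simulated regions.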

Additional observations from a re-analysis of the deposited data

How the results depend on the processing

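IDR summits lay in the gene body alone of 2 of the 10 genes, in 14.7% of all genes and in 29 of the 90 genes of the 4 lists. The 2 were Mef2 and twi, and twi counted only through its long transcript. These shares are not matched for length, on which a count in the body alone depends. Median lengths were 8690.5 to 14192 bp in the 4 lists and 2166 bp over all genes. The share of all genes was 31.8% within 1 kb, 38.5% within 2 kb and 68.9% within 10 kb, and 42.8% over all annotated genes. Counting a summit only for the gene with the nearest TSS gave 3 genes, with no matching share of all genes computed. The number of summits was 11 in the stronger 50% of the IDR list and 13 with twi without its long transcript, an alternative chosen after seeing the data. The IDR list was not remade without a replicate. Keeping only IDR peaks covered by strong regions of all replicates but 1 gave 19 to 20 summits and 4 to 5 genes. With coverage required in all 3 replicates, these were 19 summits and 4 genes. Shares of all genes under these filters were not computed, so these gene counts have no background. The rate per 100 kb, 6.47, was 5.93 in gene bodies, 5.76 within 10 kb and 3.99 with the short twi. Leaving out 1 gene gave 5.13 without Mef2, 3.83 without twi, 7.06 without Mhc, 6.80 without up, 7.65 without sls, 7.71 without bt and 6.85 without wupA. Using all 30000 regions, 9 genes had a region in every replicate. The matching share of all genes was not computed, while 78.0% of all genes had a region in the pooled list. Within 250 bp of an own TSS there was 1 summit. As a percent of the list, the median best rank of the 5 genes with an IDR peak was 13.2 in the IDR list, 3.64 in the pooled list and 5.22, 3.40 and 4.87 in replicates 1, 2 and 3, lists of another length. Of 109 alternatives, 53 stayed within 1.5 times the count or the replicate spread. At 50 bp from the summit, 4 of the 8 motif counts moved: the homeodomain core to 2 summits, the MEF2 site and CATATG to 1 each and the GAGA element to 2. The dm3 lists were not used. No paired analysis was possible because there is 1 group. Unknown depth, shared control signal and 10 genes limit what absence from a list can show.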
